A study of Homo sapiens with 6 samples.

Results

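EMP1, EMP2, EMP3 and PMP22 form a small family of membrane glycoproteins, the epithelial membrane proteins and peripheral myelin protein 22. These 4 genes were chosen by name out of 58825 gene identifiers, and with the difference between treated and untreated PANC-1 cells already known. Each name belonged to 1 identifier only, and all 4 passed the filter on low values, as did 17774 identifiers in all. Of the 4 genes, EMP1 stood at a higher level in every library treated with maslinic acid (MA) than in any untreated one. EMP2 and EMP3 overlapped between the groups, and PMP22 was far lower in 1 treated library and close to the untreated level in the other two.

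The proteins of this family each cross the membrane several times, and belong to the same superfamily as the claudins of tight junctions. PMP22 is a main protein of compact myelin in peripheral nerve, where a change in the dose of its gene causes hereditary neuropathy, but epithelial cells also make it. EMP1, EMP2 and EMP3 are made in many epithelia and tumours and have been linked to cell adhesion, to integrins at the cell surface and to receptor signalling.

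PANC-1 is an established human cell line from a pancreatic ductal carcinoma, and MA is a pentacyclic triterpenoid of the olive. Poly(A) RNA of 6 cultures was sequenced, 3 exposed to MA at 40 μM over 24 h (the MA PANC-1 group) and 3 without it at 0 μM (the PANC-1 group). The methods of the study call the 3 samples of each group biological replicates. They also name DMSO as the control treatment in general, and whether the untreated RNA-seq cultures received it is not given in the sources used here. The treatment note of every sample names MA, so the groups rest on the sample titles and descriptions. The total of the estimated counts was 56978375, 63984133 and 58181114 for the treated libraries MA PANC-1 1, 2 and 3. For the untreated libraries PANC-1 1, 2 and 3 it was 70275355, 65607669 and 59422939. Levels are given as FPKM, the fragments of a gene scaled to its transcript length and to the depth of the library, which can be compared between genes.

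The RNA was checked against markers of cell types. Keratins 18 and 8 of simple epithelia had mean levels of 310 and 198 FPKM over the 6 libraries, and vimentin, a mesenchymal filament protein encoded by VIM, had 617 FPKM. The other 5 epithelial and carcinoma markers were lower, with MUC1 at 1.89, KRT7 at 1.80, CDH1 at 0.929, EPCAM at 0.071 and KRT19 at 0.053 FPKM. Of the other 5 mesenchymal genes, CDH2 had 14.9 FPKM, and ZEB1, SNAI2, FN1 and SPARC had between 0.593 and 1.003 FPKM. None of 6 acinar and islet markers and none of 7 leukocyte and endothelial markers passed the filter, and the most abundant of them, LYZ, had a mean of 0.030 FPKM. SNAI2, a mesenchymal transcription factor, was the only one of the 6 mesenchymal genes with an unadjusted p under 0.05. Of all genes tested, 11.2% had such a p, and 5.86% of all genes tested had one and were lower in MA PANC-1. Nothing is therefore read from this count. The edgeR log2 fold change of SNAI2 was −0.66 (SE 0.28, unadjusted p = 0.0496, adjusted p = 0.444), and its unadjusted p was 0.123 without the library MA PANC-1 2. Without that library VIM, KRT7, KRT8 and KRT18 had unadjusted p-values under 0.05 instead, all lower in MA PANC-1, with log2 fold changes of −0.31, −0.46, −0.39 and −0.22 (edgeR). In that fit 1834 of the 17774 genes tested had an unadjusted p under 0.05, and nothing is read from these marker calls. The other tested markers had no such p, with log2 fold changes of 0.33 for MUC1, 0.05 for FN1 and 0.02 for CDH2. CDH1 had −0.31, ZEB1 −0.39, SNAI2 −0.48 and SPARC −0.01 there.

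MA PANC-1 2 stood apart from the other libraries. On the first principal component of log2 counts per library size, with 26.4% of the variance, it lay at −73.6, while MA PANC-1 1 lay at −29.5, MA PANC-1 3 at 16.2 and the untreated libraries between 18.0 and 44.9. Among 11470 genes with a mean of at least 1 FPKM, 124 (1.08%) were at no more than 0.5 times their lowest level elsewhere in this library, against 32 to 40 genes in each of the other 5. MA PANC-1 1 stood apart on the second component, with 21.4% of the variance, at 72.2 against −43.0 to 7.85 for the other libraries. The values of the 4 family genes are given with and without MA PANC-1 2, as are the values of some of the other genes. Without MA PANC-1 1 the log2 fold changes of the family were 1.66 for EMP1, −0.15 for EMP2, 0.20 for EMP3 and −0.74 for PMP22.

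The 4 genes lie on 4 chromosomes, with positions on GRCh38 as deposited. EMP1 (ENSG00000134531) lies at chr12:13196723-13219941 on the plus strand, EMP2 (ENSG00000213853) at chr16:10528422-10580598 on the minus strand, EMP3 (ENSG00000142227) at chr19:48321509-48330553 on the plus strand and PMP22 (ENSG00000109099) at chr17:15229777-15265326 on the minus strand. The principal transcripts in GENCODE 29 have 5 exons each and code for proteins of near equal length, with 157 codons in EMP1, 167 in EMP2, 163 in EMP3 and 160 in PMP22. Their whole lengths differ far more, with 5921 bases for EMP1, 5197 for EMP2, 1861 for PMP22 and 876 for EMP3. The coding parts are thus alike in size, and the rest of the mRNA is not.

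The sequences upstream of the start sites are shown because EMP1 differed from the other 3 genes in its values after MA. They come from RefSeq promoters on GRCh38.p14, which held 1 start for EMP1, 1 for EMP2, 2 for EMP3 and 3 for PMP22, and only bases outside the annotated exons of the gene are printed, 5′ to 3′ on the gene's strand. Capitals mark matches to TGANTCA (a loose form of the AP-1 element, N being any base), GGGCGG (the GC box), TATAAA or CCAAT on either strand. For EMP1 these are 240 bases at chr12:13196476-13196715 (plus strand), for EMP2 150 bases at chr16:10580699-10580848 (minus strand), and for the outermost PMP22 start 219 bases at chr17:15265358-15265576 (minus strand).
EMP1: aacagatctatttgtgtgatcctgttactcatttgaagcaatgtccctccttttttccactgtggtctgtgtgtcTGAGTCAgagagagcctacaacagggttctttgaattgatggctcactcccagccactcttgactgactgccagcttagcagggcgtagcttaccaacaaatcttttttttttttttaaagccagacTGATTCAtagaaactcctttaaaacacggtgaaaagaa
EMP2: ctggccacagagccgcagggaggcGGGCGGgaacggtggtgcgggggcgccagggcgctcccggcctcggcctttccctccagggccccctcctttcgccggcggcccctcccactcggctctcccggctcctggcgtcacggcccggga
PMP22: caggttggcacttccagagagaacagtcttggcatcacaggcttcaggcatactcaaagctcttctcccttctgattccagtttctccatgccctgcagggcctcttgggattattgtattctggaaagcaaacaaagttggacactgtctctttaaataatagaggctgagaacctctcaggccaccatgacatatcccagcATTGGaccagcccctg

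The EMP1 window held TGAGTCA at 175 and TGATTCA at 48 bases before the start, both matches to TGANTCA, with G and T at N. Of 35116 promoter windows of 250 bases in RefSeq, 6.57% held TGANTCA at least once and 0.402% held 2 or more matches. No match to these letters was found in the other 6 windows, those of EMP2, EMP3 and PMP22. A GC box lay 226 bases before the EMP2 start, 9 before that of EMP1, 11 before 1 of the EMP3 starts, and 98 and 67 before the inner PMP22 starts, and 42.6% of all windows held one. The CCAAT box, present in 32% of all windows, was matched 47 bases before the outermost PMP22 start as its complement ATTGG, and 89 bases before 1 of the EMP3 starts in the same form. TATAAA, in 10.7% of all windows, was matched 224 bases before that EMP3 start, and 226 before it as the overlapping complement TTTATA, and in none of the other 6 windows. The letters GGAATG (TEAD element, 11.9% of windows) and CACGTG (E-box, 6.34%) were found in none of the 7 windows. These matches describe letters in the windows, and binding at them was not measured. The EMP1 window was poor in G and C, at 42.4% with 3 CpG, against 77.2% with 27 CpG for EMP2, 48.8% with 1 CpG for the outermost PMP22 start and a median of 58% with 11 CpG over all windows. Both EMP3 windows had 59.2%, with 9 and 4 CpG, and the inner PMP22 windows had 61.2% with 15 CpG and 69.6% with 26 CpG.

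EMP1 had 3.96, 2.91 and 4.58 FPKM in MA PANC-1 1, 2 and 3, and 1.27, 1.36 and 1.003 FPKM in PANC-1 1, 2 and 3. All treated libraries lay above all untreated ones, and the lowest treated library was MA PANC-1 2. Estimated counts were 2105, 1746 and 2498 against 836, 838 and 559. The group means were 3.82 ± 0.847 FPKM in MA PANC-1 and 1.21 ± 0.186 FPKM in PANC-1 (SD, n = 3 each), 3.15-fold apart. The edgeR log2 fold change was 1.68 (SE 0.19), rank 216 of 17774 genes from the top, and the contrast served to choose the gene and is given without a test. Without MA PANC-1 2 it was 1.81 (SE 0.16). EMP1, a gene of epithelial cells that is often named among growth arrest and squamous differentiation genes, was at the middle of the genes tested by mean level, at percentile 50.3. In RNA of whole cultures, a larger share of cells with the transcript and more transcript per cell cannot be told apart.

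EMP2 had 3.91, 3.57 and 3.45 FPKM in MA PANC-1 1, 2 and 3, and 3.95, 4.28 and 3.90 FPKM in PANC-1 1, 2 and 3. The groups overlapped, although only through MA PANC-1 1, which lay just above PANC-1 3. Means were 3.64 ± 0.240 and 4.05 ± 0.206 FPKM (SD, n = 3 each), and the log2 fold change was −0.11 (SE 0.11), or −0.14 (SE 0.10) without MA PANC-1 2. EMP2 is known to take part in the delivery of integrins and caveolins to the cell surface. It varied least of the 4 genes within the groups, with a coefficient of variation of 6.58% in MA PANC-1 and 5.10% in PANC-1.

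EMP3 had 95.5, 120.1 and 80.7 FPKM in MA PANC-1 1, 2 and 3, and 99.6, 83.8 and 91.2 FPKM in PANC-1 1, 2 and 3. The groups overlapped, with both the highest and the lowest value in treated libraries. Means were 98.7 ± 19.9 and 91.5 ± 7.92 FPKM (SD, n = 3 each). The log2 fold change was 0.16 (SE 0.17), and it turned to −0.06 (SE 0.11) without MA PANC-1 2, so its sign rested on that library. EMP3, which has been linked to receptor signalling in glioma and breast tumours, ranked 371 of the genes tested by mean level, at percentile 97.9.

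PMP22 had 9.58, 2.47 and 9.89 FPKM in MA PANC-1 1, 2 and 3, and 9.96, 11.3 and 10.2 FPKM in PANC-1 1, 2 and 3. MA PANC-1 2 held 0.258 times the level of the next lowest library, and the other treated libraries lay just under the lowest untreated one. Estimated counts were 2071, 606 and 2196 against 2667, 2823 and 2312. Means were 7.31 ± 4.20 and 10.5 ± 0.698 FPKM (SD, n = 3 each), with a log2 fold change of −0.51 (SE 0.43). Without MA PANC-1 2 the treated mean was 9.74 FPKM and the log2 fold change −0.11 (SE 0.10). A ratio this low to the next lowest library was met by 24 of the 11470 genes in MA PANC-1 2, PMP22 among them, and by 7 to 15 genes in each other library.

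**Figure D1:**
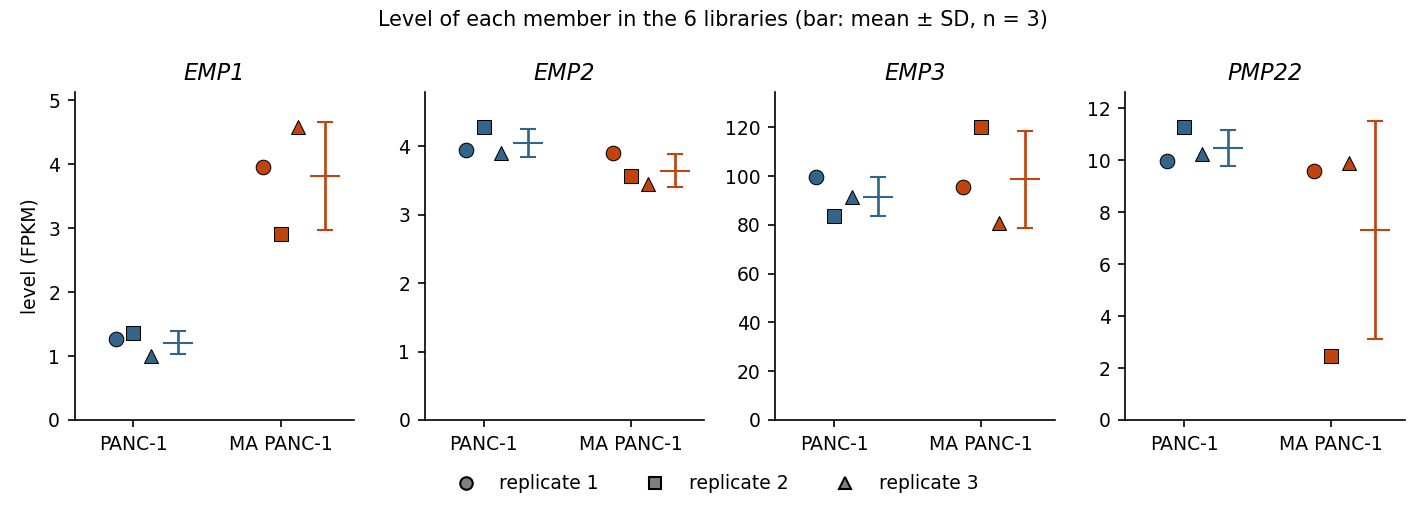
Level of EMP1, EMP2, EMP3 and PMP22 in FPKM (vertical axis, from 0, a scale for each gene) in 3 PANC-1 and 3 MA PANC-1 libraries. Each point is a library, its shape the replicate number, and the bar beside each group is the mean ± SD. EMP1 is higher in all treated libraries, and PMP22 is low in MA PANC-1 2 alone at 2.47 FPKM.

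Across all genes tested, 19.9% had groups that did not overlap, 8.79% higher and 11.1% lower in MA PANC-1. Of the 4 family genes, EMP1 was higher and PMP22 lower without overlap, and since that contrast was used in choosing the genes nothing is read from the count. A change of 2-fold or more with an unadjusted p under 0.05 was met by 1.92% of genes, 120 higher (0.675%) and 222 lower (1.25%). With adjustment over all genes by edgeR's quasi-likelihood test, 7 genes (0.0394%) had an adjusted p under 0.05, 4 higher (0.0225%) and 3 lower (0.0169%). The median log2 fold change of all genes tested was −0.0017, or −0.0080 without MA PANC-1 2.

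The order of the levels was the same in the 3 untreated libraries and differed in the treated ones. In each PANC-1 library EMP3 came first, then PMP22, EMP2 and EMP1. PMP22 and EMP3 were 10.0, 7.43 and 8.92-fold apart in PANC-1 1, 2 and 3, far beyond their spread. In MA PANC-1 1 and 3 the order was EMP3, PMP22, EMP1 and EMP2, and in MA PANC-1 2 it was EMP3, EMP2, EMP1 and PMP22. The ratio of EMP1 to EMP2 was 1.01, 0.814 and 1.33 in MA PANC-1 1, 2 and 3, so those neighbours in the order did not differ beyond their spread. In PANC-1 1, 2 and 3 that ratio was 0.321, 0.318 and 0.257, and EMP2 was above EMP1 in each.

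EMP3 made up most of the family's RNA in every library. Its share of the summed FPKM was 84.5%, 93.1% and 81.8% in MA PANC-1 1, 2 and 3, and 86.8%, 83.2% and 85.8% in PANC-1 1, 2 and 3. The sum of all 4 genes was 113, 129 and 98.6 FPKM in MA PANC-1 and 115, 101 and 106 FPKM in PANC-1, overlapping between the groups. With EMP3 left out, EMP1 accounted for 22.7%, 32.5% and 25.6% of the other 3 genes in MA PANC-1 1, 2 and 3, against 8.36%, 8.05% and 6.63% in PANC-1 1, 2 and 3. The sum of those 3 genes was 17.5, 8.95 and 17.9 FPKM in MA PANC-1 1, 2 and 3, and 15.2, 16.9 and 15.1 FPKM in PANC-1 1, 2 and 3. The low value in MA PANC-1 2 followed PMP22.

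**Figure D2:**
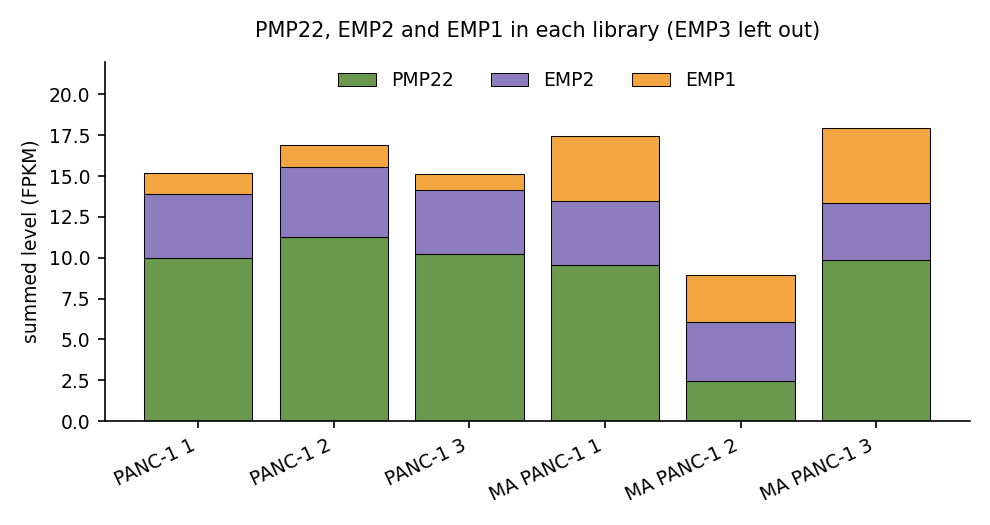
Summed level in FPKM (vertical axis, from 0) of PMP22, EMP2 and EMP1 in each of the 6 libraries, with EMP3 left out for its much higher level. The EMP1 segment is between 1.003 and 1.36 FPKM in the untreated libraries and between 2.91 and 4.58 FPKM in the treated ones, and the PMP22 segment is short in MA PANC-1 2 only.

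The log2 fold changes were computed under 9 other settings with all libraries and with each library left out. EMP1 stayed positive throughout, from 1.11 with a pseudocount of 1 on FPKM to 1.68 with other size factors, and from 1.55 to 1.81 with a library left out. EMP2 ran from −0.15 to −0.11 and, with a library left out, from −0.15 to −0.06. EMP3 ran from 0.09 to 0.16 and from −0.06 to 0.30. PMP22 ran from −0.76 to −0.51 and from −0.77 to −0.11, the last without MA PANC-1 2. For all 4 genes the count divided by FPKM was constant over libraries to within 0.995 and 1.01 times its mean, after scaling each library, so both deposited units hold the same differences.

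**Figure D3:**
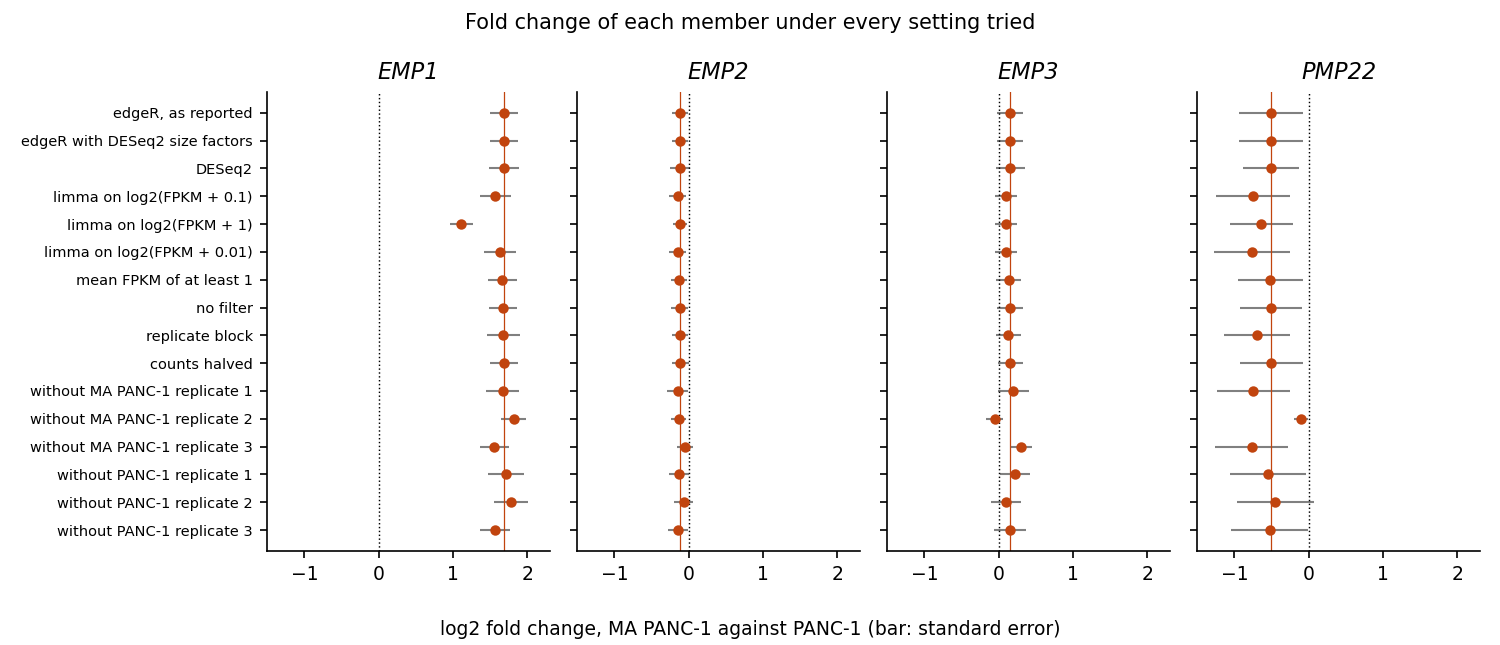
Log2 fold change of each gene, MA PANC-1 against PANC-1 (horizontal axis), under each setting tried (rows), with the standard error as a bar, 0 as a dotted line and the reported value as a solid line. EMP1 stays between 1.11 and 1.81, and PMP22 moves to −0.11 once MA PANC-1 2 is left out.

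Relatives of the family were taken from a list of 39 other genes of the claudin superfamily, including claudins, the calcium channel gamma subunits and PERP. Of these, 15 passed the filter and 12 had no count in any library. The most abundant was PERP, a desmosome protein and p53 target, at a mean of 81.6 FPKM, followed by the tight junction genes CLDN1 at 12.2 and CLDN7 at 9.51 FPKM. CACNG4, a gamma subunit gene, had 8.79 FPKM, CLDND1 7.48, CACNG6 4.50, CLDN12 3.49 and CACNG7 3.14 FPKM. Their log2 fold changes ran from −0.25 in CACNG7 to 0.09 in CACNG4, with none of these 8 at an unadjusted p under 0.05 with all libraries. Without MA PANC-1 2, CACNG7 had −0.42 with an unadjusted edgeR p under 0.05, CACNG4 turned to −0.03 and CLDND1 moved from −0.17 to −0.00. CLDN7 moved from −0.10 to −0.25, CACNG6 from −0.18 to −0.26, CLDN12 from −0.18 to −0.07, PERP from −0.17 to −0.09 and CLDN1 from −0.12 to −0.06. CLDN1 turned to 0.03 without PANC-1 2. The median over the 15 genes was −0.12, with 6 positive and 9 negative values, and −0.06 without MA PANC-1 2. Without overlap, 3 of the 15 were lower (CACNG6, CACNG7 and CACNG8) and 0 higher, where 11.1% and 8.79% of all genes tested were.

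In this list CACNG8 was lower and CLDN6 higher at an unadjusted p under 0.05, where 5.86% and 5.37% of all genes tested were. CLDN6 passed the filter only through its level in MA PANC-1, with a mean of 0.287 FPKM there and 0.0769 FPKM in PANC-1, so its call is no support for a difference of the list. CACNG8, a subunit that also accompanies AMPA receptors, had 2.44, 2.24 and 1.70 FPKM in MA PANC-1 1, 2 and 3 and 4.15, 4.40 and 3.60 FPKM in PANC-1 1, 2 and 3. The groups did not overlap. The edgeR log2 fold change was −0.89 (SE 0.17, adjusted p = 0.282), so it did not pass over all genes. CLDN6, an embryonic claudin, had 0.363, 0.404 and 0.0934 FPKM in MA PANC-1 against 0.0763, 0.124 and 0.0306 FPKM in PANC-1, and the groups overlapped. Its log2 fold change was 1.89 (SE 0.75, edgeR adjusted p = 0.435) on 4 to 54 counts per library, and without MA PANC-1 2 it was 1.52 at an unadjusted edgeR p of 0.124. The call was also lost without MA PANC-1 1, PANC-1 1 or PANC-1 3.

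A second list held 21 genes whose products have been described as partners of the family: integrins and focal adhesion kinases, caveolins, receptors bound by EMP3 and proteins that handle PMP22 in the secretory pathway. Of these, 19 passed the filter. Of the 19 genes tested, 16 had a negative and 3 a positive log2 fold change, with a median of −0.26, and without MA PANC-1 2 also −0.26. At an unadjusted p under 0.05 there were 5 lower and 0 higher genes (edgeR), beside 5.86% lower and 5.37% higher of all genes tested, and 0 at an adjusted p under 0.05. Of the 19, 7 were lower and 1 higher without overlap, where 11.1% and 8.79% of all genes tested were.

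The list held 6 integrin genes, whose products bind cells to matrix, with means from 2.46 FPKM in ITGB3 to 127 FPKM in ITGB1. ITGB1 had 102, 109 and 107 FPKM in MA PANC-1 1, 2 and 3, and 155, 125 and 165 FPKM in PANC-1 1, 2 and 3. Treated and untreated libraries did not overlap, with an edgeR log2 fold change of −0.45 (SE 0.12, adjusted p = 0.388). ITGB5 (mean 52.6 FPKM) had −0.04 (SE 0.09) and ITGA6 (32.2 FPKM) −0.28 (SE 0.31), both with overlap. The value of ITGA6 rested on single libraries, at −0.01 once MA PANC-1 2 was left out and −0.03 once PANC-1 3 was. RAC1, a small GTPase of the cell edge, had the highest mean of the list at 130 FPKM, and a log2 fold change of −0.02 (SE 0.07).

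Receptors linked to EMP3 were next. TGFBR2, the type II TGF-beta receptor, had 31.6, 26.8 and 32.6 FPKM in MA PANC-1 1, 2 and 3 and 41.3, 42.0 and 42.5 FPKM in PANC-1 1, 2 and 3. The edgeR log2 fold change of TGFBR2 was −0.43 (SE 0.08, adjusted p = 0.268). EGFR, the receptor of epidermal growth factor, had 20.5, 18.7 and 21.3 against 25.1, 28.6 and 23.8 FPKM, a log2 fold change of −0.32 (SE 0.10, edgeR adjusted p = 0.388). CD44, the hyaluronan receptor, had 12.3, 13.4 and 11.8 against 16.9, 15.7 and 16.6 FPKM, a log2 fold change of −0.35 (SE 0.10, edgeR adjusted p = 0.388). In these 3 genes every treated library lay below every untreated one, though none had an adjusted p under 0.05 over all genes with edgeR. DESeq2 gave TGFBR2 an adjusted p of 0.0161.

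Genes of caveolae and of the secretory pathway came last. CAV1, the main caveolin, had 47.8, 43.8 and 25.6 against 59.2, 57.3 and 53.6 FPKM, without overlap, at a log2 fold change of −0.49 (SE 0.23) that was −0.25 without MA PANC-1 3. Its unadjusted p was 0.0664 with edgeR and under 0.05 with DESeq2, the limma settings and the replicate block. With edgeR it was 0.0288 without MA PANC-1 3, 0.0419 without MA PANC-1 1, and above 0.05 without any other library. CAV2, its partner, had 9.71, 6.75 and 6.49 against 10.5, 9.68 and 10.4 FPKM, a log2 fold change of −0.38 (SE 0.16, edgeR adjusted p = 0.441). MA PANC-1 1 overlapped the untreated libraries for CAV2, and the unadjusted p of CAV2 was 0.0463 with all libraries and 0.112 without MA PANC-1 2 (edgeR), and it was also above 0.05 without MA PANC-1 3 or any 1 of the untreated libraries. FLOT1, of flotillin domains, had a log2 fold change of 0.27 (SE 0.12) at a mean of 50.5 FPKM, and CANX, the calnexin chaperone, had −0.23 (SE 0.19) at 125 FPKM, or −0.04 without MA PANC-1 3.

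**Figure D4:**
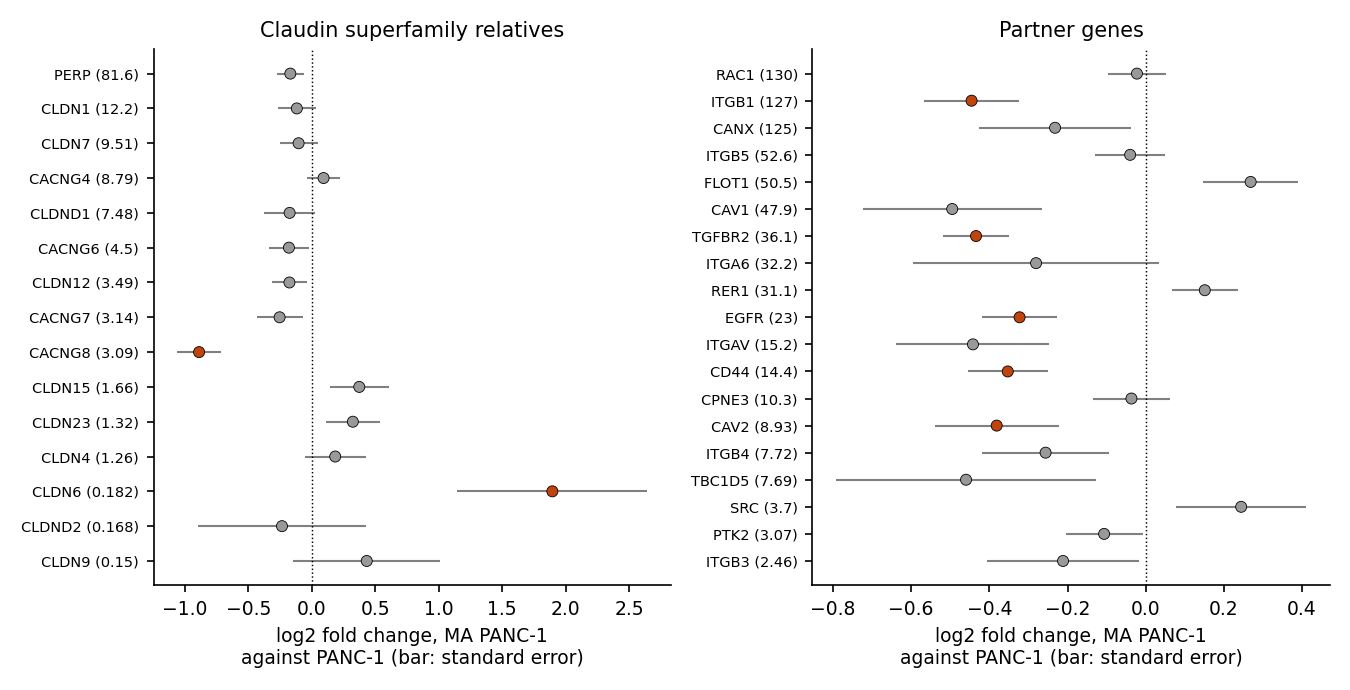
Log2 fold change, MA PANC-1 against PANC-1, with its standard error, for the 15 claudin superfamily relatives (left) and the 19 partner genes (right) that passed the filter, ordered by mean FPKM (in brackets). Orange points have an unadjusted edgeR p under 0.05, 2 among the relatives and 5 among the partners, all 5 of these lower in MA PANC-1.

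PMP22 is best known from myelin, and 14 Schwann cell and myelin genes were therefore read beside it. Only 6 passed the filter, and MAG, GJB1 and S100B had no count in any library. The Schwann cell transcription factors were near 0, with EGR2 at a mean of 0.012 FPKM and SOX10 at 0.004 FPKM. The most abundant, CNP, had a mean of 11.5 FPKM and a log2 fold change of −0.10 (SE 0.16), or 0.04 without MA PANC-1 2, and MBP had 1.60 FPKM and −0.30 (SE 0.17). MBP had −0.18 without PANC-1 2, and −0.44 at an unadjusted edgeR p of 0.0263 without PANC-1 3. The median log2 fold change of the 6 was 0.02. The summed level of the 14 was 22.2, 18.4 and 20.6 FPKM in MA PANC-1 1, 2 and 3 and 18.3, 21.0 and 18.7 FPKM in PANC-1 1, 2 and 3, so the groups overlapped.

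Both list genes with an unadjusted p under 0.05 were higher in MA PANC-1, as were 5.37% of all genes tested. NGFR, the low affinity neurotrophin receptor, had 4.06, 4.47 and 3.42 FPKM in MA PANC-1 1, 2 and 3 and 1.76, 2.23 and 2.57 FPKM in PANC-1 1, 2 and 3. The groups did not overlap, and the edgeR log2 fold change was 0.91 (SE 0.20, adjusted p = 0.357). PRX, the periaxin gene, had 1.69, 2.35 and 2.12 against 1.53, 1.66 and 1.29 FPKM, a log2 fold change of 0.50 (SE 0.20, edgeR adjusted p = 0.435). Without MA PANC-1 2 the log2 fold change of PRX was 0.34 at an unadjusted edgeR p of 0.105, and for NGFR it was 0.78. The call of PRX was also lost without MA PANC-1 3, PANC-1 1 or PANC-1 3, and that of NGFR was kept without any 1 library.

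The nearest tested gene on each side of every member was examined, 8 genes in all, of which 1 had an unadjusted p under 0.05, as did 11.2% of all genes tested. On chromosome 12, FAM234B, 113 kb before EMP1, had a log2 fold change of −0.00 (SE 0.12), and ATF7IP, 1146 kb after it, −0.24 (SE 0.13). Neither value was near that of EMP1. Beside EMP2, ATF7IP2 had −0.06 and NUBP1 −0.03, and beside EMP3, ZNF114 had 1.29 (SE 0.65) and TMEM143 0.13. With a library left out, ATF7IP2 ran from −0.35 to 0.11, NUBP1 from −0.10 to 0.03, ZNF114 from 0.94 to 1.80 and TMEM143 from −0.005 to 0.29. CCDC114 overlaps the 5′ end of EMP3 on the opposite strand, at a mean of 0.591 FPKM, and AC005703 lies opposite within PMP22 at 0.341 FPKM. Both were minor beside the member, and whether the counting used the strand is not given in the sources used here.

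CDRT4, 171 kb beyond PMP22 on chromosome 17, had estimated counts of 117, 892 and 83 in MA PANC-1 1, 2 and 3 and 13, 57 and 21 in PANC-1 1, 2 and 3. MA PANC-1 2, the library low in PMP22, was the highest. The edgeR log2 fold change of CDRT4 was 3.71 (SE 1.06, adjusted p = 0.388), and 1.89 without that library. The gene shares its sequence with the read-through gene TVP23C-CDRT4, which had 560, 43 and 406 against 859, 285 and 375 estimated counts. TVP23C itself had 584, 595 and 677 against 726, 603 and 740. The sum of the 3 overlapping genes was 1261, 1530 and 1166 against 1598, 945 and 1136, so the groups overlapped once their counts were joined, and the value for CDRT4 alone is uncertain. RPS18P12, a pseudogene on the other side of PMP22, had a log2 fold change of 0.24 (SE 0.36), which turned to −0.06 without MA PANC-1 3.

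**Figure D5:**
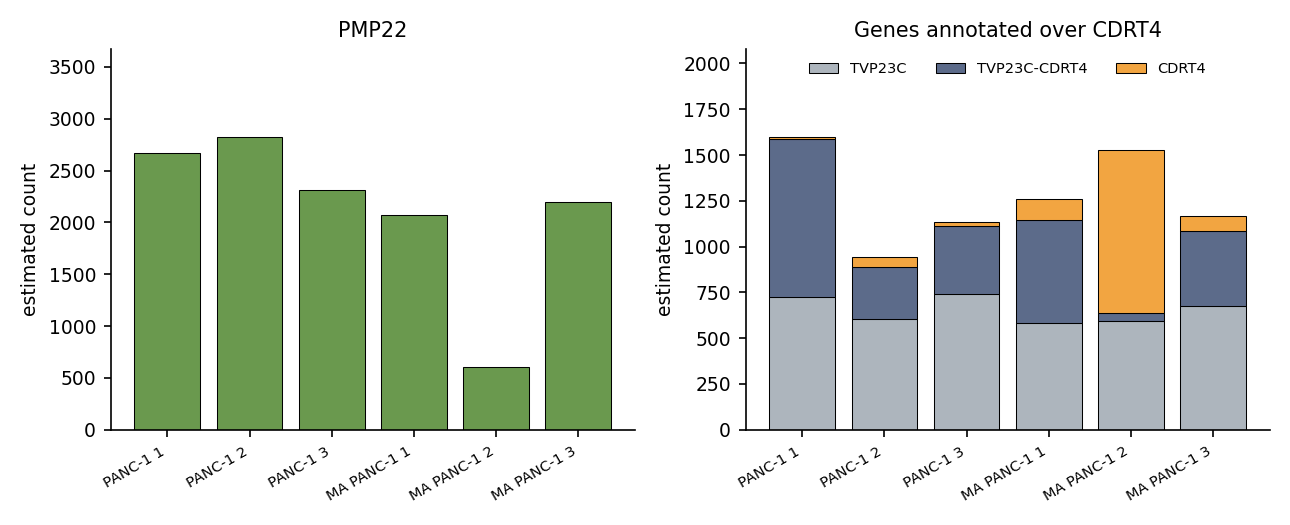
Estimated counts (vertical axes, from 0) of PMP22 (left) and of CDRT4, TVP23C-CDRT4 and TVP23C stacked (right) in the 6 libraries, not normalized for depth. In MA PANC-1 2 PMP22 has 606 counts, CDRT4 has 892 and TVP23C-CDRT4 has 43, while TVP23C at 595 is within its range elsewhere.

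The genes whose levels followed EMP1 most closely over the 6 libraries were found by Pearson's r of log2(FPKM + 0.1) among 11469 other genes with a mean of at least 1 FPKM. The points share their groups, so the coefficient largely repeats the difference between the groups and is a description. The highest were TTPAL at 0.992, PRKAR1A at 0.987 and AHCYL1 at 0.984. TTPAL, a gene of the tocopherol transfer protein family, had 4.14, 3.22 and 5.57 FPKM in MA PANC-1 1, 2 and 3, and 0.973, 1.17 and 0.972 FPKM in PANC-1 1, 2 and 3. The order of the treated libraries was that of EMP1, with MA PANC-1 3 highest and MA PANC-1 2 lowest. PRKAR1A, a regulatory subunit of protein kinase A, had 14.9, 11.6 and 18.4 against 7.22, 7.40 and 6.94 FPKM, and AHCYL1 16.1, 13.96 and 16.6 against 11.5, 10.5 and 10.3 FPKM.

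The lowest coefficients belonged to ANPEP at −0.996, CD44 at −0.989 and TINAGL1 at −0.988. ANPEP, the cell surface aminopeptidase N, had 85.0, 99.1 and 78.0 FPKM in MA PANC-1 1, 2 and 3, and 155, 157 and 166 FPKM in PANC-1 1, 2 and 3. TINAGL1, a matrix protein, had 6.08, 6.59 and 5.43 against 8.22, 8.58 and 9.70 FPKM. The family itself did not share the pattern, with coefficients to EMP1 of −0.68 for EMP2, 0.02 for EMP3 and −0.29 for PMP22. In all, 34 genes had a positive coefficient and 36 a negative one whose size was at least 0.95.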

How the data were processed

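RNA-seq was analysed in 3 MA PANC-1 and 3 PANC-1 samples, grouped by their labels. The authors deposited 1 table with an FPKM value and an estimated count per gene and sample. The submitters' processing notes name cutadapt 1.9, HISAT2 2.0.4, StringTie 1.3.4d, edgeR and DESeq2. Deposited FPKM values are scaled to gene length and library depth, and a value of 0.0001 stands for a gene with no reads. The deposited estimated counts are whole numbers, not normalized. Of 58552 identifiers shared with GENCODE 29 (GRCh38), 81.2% had the same position and strand.

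The members, gene lists and tests were chosen with earlier results of these data known. Genes whose FPKM averaged 0.1 or more over the 6 samples were tested with edgeR 4.0.16 (R 4.3.3) on estimated counts by the quasi-likelihood test with TMM factors, without covariates. P-values were adjusted by Benjamini-Hochberg over all 17774 genes. The standard error is the log2 fold change divided by the square root of F. Members were described without a test. A permutation test of 3 against 3 samples cannot go below 0.1 and was not used.

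Named were the 4 members, the 8 most abundant genes of the relative and partner lists (4 of the myelin list), any gene of these lists with an unadjusted p under 0.05, the nearest tested neighbours, and the 3 genes most and least like EMP1. Other genes named (markers, genes with no or few counts, overlapping genes and SNAI2) were chosen after their values were seen. Some items of the lists are not reported here. Alternatives were DESeq2 1.42.0, DESeq2 size factors, limma 3.58.1 on log2(FPKM + 0.1), with 1 or 0.01 in place of 0.1, a mean FPKM of at least 1, no filter, a replicate block, halved counts and leaving out each library.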

Additional observations from a re-analysis of the deposited data

How the results depend on the processing

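Of the 4 family genes, EMP3 alone changed sign, when MA PANC-1 2 was left out and its log2 fold change was −0.06 (range −0.06 to 0.30 over the libraries left out). That of EMP1 was 1.11 with limma on log2(FPKM + 1). Ranges over the libraries left out were 1.55 to 1.81 for EMP1, −0.15 to −0.06 for EMP2 and −0.77 to −0.11 for PMP22.

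Of all genes, 7 had an adjusted p under 0.05 with edgeR, 263 with DESeq2, 12 at a mean FPKM of at least 1, and 3 (without PANC-1 2) to 24 (without MA PANC-1 2) with a library left out. With the 2-fold threshold and unadjusted p under 0.05, 342 genes (120 higher, 222 lower) became 44 (22 and 22) with limma on log2(FPKM + 1), 93 (43 and 50) at a mean FPKM of at least 1, 569 without a filter, and 326 to 534 with a library left out, the last without MA PANC-1 3. The cause was not tested, apart from the number of genes a filter leaves.

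Relatives at an unadjusted p under 0.05 were 2 in the reported fit, 1 with each limma setting, 1 at a mean FPKM of at least 1, and 1 to 2 with a library left out. For the myelin genes that range was 1 to 2, for the partners 4 to 7 and for the neighbours 1 to 2. Of all 17774 genes, 1178 (without PANC-1 1) to 3213 (without MA PANC-1 3) had such a p, so nothing is read from these ranges. Neighbours were 2 with DESeq2, 0 with limma on log2(FPKM + 1) and 0 at a mean FPKM of at least 1, where CDRT4 was not tested. DESeq2 gave an adjusted p under 0.05 to 1 relative (CACNG8), 1 partner (TGFBR2) and 1 myelin gene (NGFR). Genes with a coefficient to EMP1 of at least 0.95 were 34 with Pearson's r and 22 with Spearman's rho.

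Same-numbered samples were not shown to be pairs, with correlations of their deviations of 0.03, 0.05 and 0.07, although every sample correlated best with its own number. With the replicate number as a block, edgeR gave 0 genes with an adjusted p under 0.05 (2215 at an unadjusted p under 0.05), 8 partners at an unadjusted p under 0.05, and 1.68 for EMP1.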
